A study of Homo sapiens with 16 samples.

Results

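A set of 10 genes of the BCL2 family was followed in Sorafenib-resistant HCC cells. They were taken by name from the deposited table, by matching its gene IDs to symbols. All 10 were found among its 26258 genes, and all 10 passed the filter that left 15019 genes for testing (1 CPM or more in at least 2 libraries, CPM being reads scaled to the total of the library). BCL2 passed it only through resistant libraries, namely 1 of Huh7-IR and all 4 of resistant Hep3B cells, so that its higher level in them is not independent of the filter.

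The BCL2 family decides whether the outer membrane of mitochondria is opened during apoptosis. BAX and BAK1 form the pores that release cytochrome c, BCL2, BCL2L1 (BCL-XL) and MCL1 hold them in check, and the BH3-only proteins relay stress by binding to the guardians or to the pore formers directly. BCL2L11 encodes BIM, BBC3 encodes PUMA and PMAIP1 encodes NOXA, which binds MCL1 in particular. In hepatocytes BCL-XL and MCL1 are the guardians whose loss is known to cause spontaneous apoptosis, and Sorafenib is known to lower MCL1 protein.

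RNA was sequenced from Huh7 and Hep3B, human liver cancer lines, in 8 groups of 2 libraries. For each line these were untreated parental cells, cells labeled DMSO (the solvent, also listed as untreated), and the resistant IR and CR cells, both under 7 μM Sorafenib. IR cells had been raised in increasing and CR cells in constantly high concentrations of the drug, so drug exposure and resistance cannot be told apart, and how many selections or clones each resistant line came from was not given in the sources used here. The methods of the study describe the RNA as biological triplicates, whereas 2 libraries per group were analysed here and their labels do not name separate cultures, so p-values measure the spread between these libraries only.

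Library totals were between 46613302 and 76860251 reads. Hepatocyte markers (8 of 8 present) summed to between 10460 and 16035 CPM in Huh7 parental, 87.7 and 396 in Huh7-IR, 1297 and 2681 in Huh7-CR, 16941 and 21034 in Hep3B parental, 3353 and 10182 in Hep3B-IR, and 1191 and 2020 CPM in Hep3B-CR cells. The DMSO libraries lay above the parental ones, with 22474 and 27524 CPM in Huh7 and 30019 and 35892 in Hep3B. SERPINA1 went against this sum in Hep3B-IR cells, with 1161 and 2052 CPM against at most 547 in parental cells (1514 and 2530 in DMSO). Fibroblast markers (4 of 4 present) summed to at most 7.19 CPM in Huh7 parental, at most 13.7 in DMSO and between 281 and 538 CPM in the resistant libraries. In Hep3B their sum was at most 5.95 CPM in parental, 12.4 and 14.5 in DMSO and between 12.8 and 71.0 CPM in the resistant libraries, most of it COL1A1 there (11.5 to 66.2 CPM, against at most 0.192 in the controls). COL1A2 reached at most 1.87 and COL3A1 at most 0.0822 CPM in any Hep3B library, and PDGFRB was lower in Hep3B-IR (at most 1.36 CPM) than in parental cells (3.90 and 5.67). Immune markers (5 of 5) summed to at most 65.5 and endothelial markers (3 of 3) to at most 6.35 CPM in any library, and PTPRC, the pan-leukocyte marker, reached at most 1.32 CPM. The part of these shifts in the changes of the BCL2 family was not tested. In such bulk RNA, fewer cells that express a gene and less of its RNA per cell cannot be told apart.

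Levels of different genes were first compared as CPM per kb of exon. BCL2L1 and MCL1 were the most abundant members in parental cells of both lines. In Huh7 parental cells, BCL2L1 stood at 113 ± 10.7 and MCL1 at 62.7 ± 2.47 CPM per kb (SD, n = 2). In Hep3B parental cells the order was inverted, with 78.6 ± 4.93 for BCL2L1 and 109 ± 3.51 CPM per kb for MCL1. BAX and BID followed in Huh7 parental cells with 27.2 and 26.0 CPM per kb, whereas BMF (28.5) ranked beside BAX (27.1) and BID (21.4) in Hep3B parental cells. BCL2 itself was nearly absent, with at most 0.147 CPM per kb in any group mean. It made up at most 0.107% of the summed level of the 3 guardians.

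The levels were then summed by role. The 3 anti-apoptotic genes together had 185 and 166 CPM per kb in the Huh7 parental libraries, 105 and 109 in Huh7-IR, and 101 and 100.5 in Huh7-CR cells. The 5 BH3-only genes summed to 42.9 and 40.2 CPM per kb in the Huh7 parental libraries, 107 and 95.1 in Huh7-IR, and 63.1 and 61.4 in Huh7-CR cells. All resistant Huh7 libraries lay below the parental and DMSO libraries for the guardians and above them for the BH3-only genes. In Hep3B, the guardians summed to 194 and 182 CPM per kb in parental, 238 and 221 in IR, and 202 and 177 in CR cells. Only the IR libraries lay above the parental ones there, and the CR libraries straddled them. The BH3-only sum was 60.0 and 55.0 CPM per kb in Hep3B parental, 107 and 73.6 in IR, and 70.7 and 77.1 in CR cells, but the DMSO libraries also had 72.3 and 75.0. These sums carry no test, since each adds genes with different lengths and spreads.

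**Figure D1:**
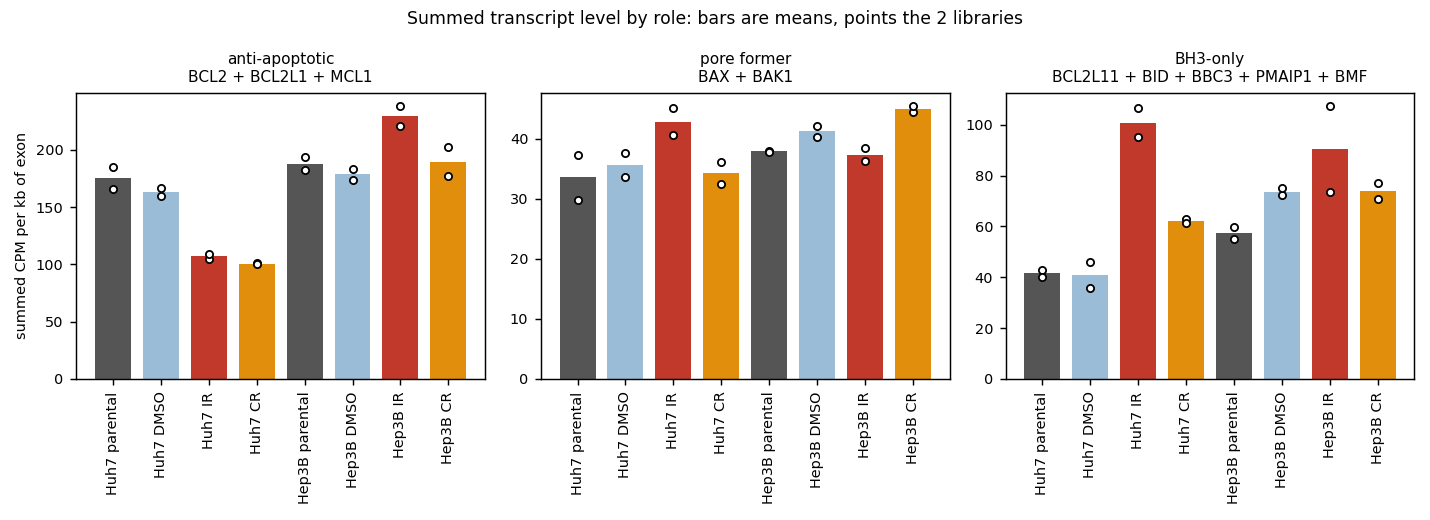
Summed level of the BCL2 family by role, in CPM per kb of exon on linear axes from 0, for the 8 groups. Bars are means and points the 2 libraries of a group: the guardians are lowest in Huh7-IR and Huh7-CR cells (100.5 to 109 CPM per kb), and the BH3-only genes are highest in Huh7-IR (95.1 and 107) and in 1 Hep3B-IR library (107).

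To determine which members changed, resistant cells were compared with the parental cells of their line. A member was called at an adjusted p below 0.05 (limma, with Benjamini-Hochberg adjustment over the 15019 genes) and a minimum change of 0.58 on the log2 scale in either direction. Fold changes are differences of log2(CPM + 1), which understates the changes of weakly expressed genes. In Huh7-IR cells 6 of the 10 members rose (BCL2, BAK1, BCL2L11, BBC3, PMAIP1 and BMF), where 31.1% of all tested genes rose, and 1 fell (BCL2L1), where 17.8% fell. The 6 include BCL2, which was kept for testing through resistant libraries alone. In Huh7-CR cells 3 rose (BCL2L11, BBC3 and PMAIP1), against 20.9% of all genes, and 2 fell (BCL2L1 and MCL1), against 13.6%. The median change of the members in Huh7 was 0.82 in IR and 0.38 in CR cells, against 0.19 and 0.07 over all genes. The shift over all genes in Huh7-IR cells depended on the scaling: with TMM factors its median was 0.00, the split over all genes moved from 4666 higher and 2670 lower to 3628 and 3682, and that of the members from 6 and 1 to 5 and 2 (without BAK1, and with MCL1 as lower).

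In Hep3B-IR cells 2 rose (BCL2L1 and BMF), where 15.7% of all genes rose, and none fell, where 11.4% fell. In Hep3B-CR cells 3 rose (BCL2, BBC3 and PMAIP1), against 20.0% of all genes, and none fell, against 12.3%. Here too the count includes BCL2, kept for testing through resistant libraries alone. With edgeR and DESeq2 on the recovered reads, and at an unadjusted p below 0.05 with the same minimum change, 0 members fell in either resistant Hep3B line as well. The median changes of the members were 0.25 and 0.49, against 0.06 and 0.11 over all genes. Without the second Hep3B parental library or without the first CR library, 0 of the 10 members passed in Hep3B-CR cells. IR and CR cells of a line share their parental libraries, so that their changes are not independent of each other.

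**Figure D2:**
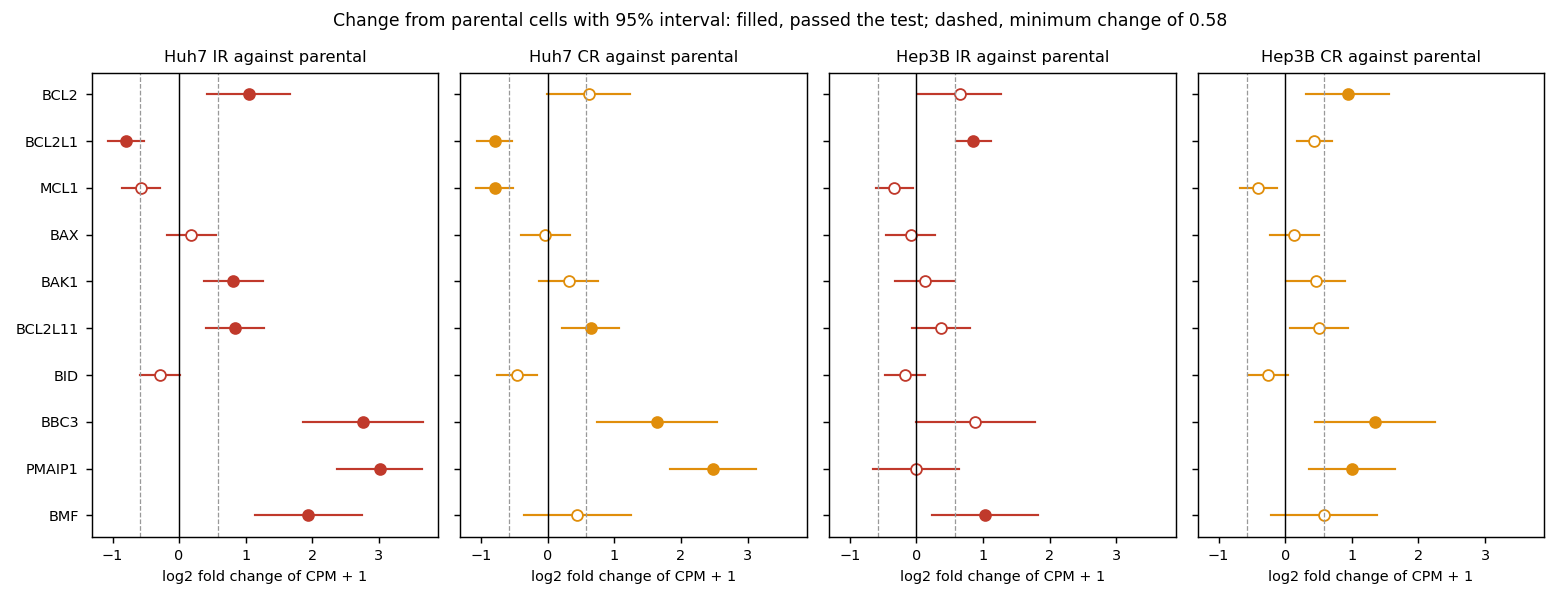
Log2 fold change of CPM + 1 (x axis) of the 10 members in the 4 resistant lines against parental cells, with 95% intervals. Filled points passed the test and dashed lines mark 0.58: BCL2L1 lies left of 0 in both Huh7 comparisons (-0.80 in each) and right of it in both Hep3B comparisons (0.86 and 0.44).

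BCL2L1 (BCL-XL; gene ID 598, GRCh37 chr20:30252255-30311792, minus strand) had opposite changes in the 2 lines. In Huh7 it had 477 and 417 CPM in parental, 443 and 445 in DMSO, 241 and 272 in IR, and 260 and 253 CPM in CR cells. All 4 resistant libraries were below all 4 control libraries. The log2 fold change was -0.80 (SE 0.12) in Huh7-IR (adjusted p = 0.000153) and -0.80 (SE 0.12, adjusted p = 0.000279) in Huh7-CR cells. In Hep3B the same gene had 326 and 298 CPM in parental, 302 and 293 in DMSO, 610 and 523 in IR, and 436 and 408 CPM in CR cells. Here all 4 resistant libraries were above the controls. The change was 0.86 (SE 0.12, adjusted p = 0.000260) in Hep3B-IR cells, and 0.44 (SE 0.12, adjusted p = 0.0138) in Hep3B-CR cells, which is below the minimum of 0.58. The 3 calls held under each of the 14 alternative analyses run for each of them. Exons of BCL2L1 share 1735 of their 3967 bases with ABALON, a long noncoding RNA on the other strand, and it was not stated whether the counting used the strand, so reads of the pair cannot be told apart.

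The interaction of line and resistance was tested directly. The change averaged over IR and CR cells differed between Huh7 and Hep3B for 2 of the 10 members, BCL2L1 and PMAIP1, against 29.4% of all genes. For BCL2L1 the change in Huh7 was lower than that in Hep3B by 1.44 on the log2 scale (95% interval -1.77 to -1.12, adjusted p = 2.92e-05). It stayed between -1.55 and -1.35 in all 22 alternative analyses.

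MCL1 (gene ID 4170, GRCh37 chr1:150533371-150552214, minus strand) was lower in all resistant lines, but passed the test in Huh7-CR cells only. Its CPM in Huh7 were 295 and 279 in parental, 254 and 219 in DMSO, 201 and 185 in IR, and 161 and 168 in CR cells. The values of the groups did not overlap. MCL1 fell by 0.80 (SE 0.13, adjusted p = 0.000401) in Huh7-CR cells and had a change of -0.57 (SE 0.13, adjusted p = 0.00230) in Huh7-IR cells, just inside the minimum. Of the 14 alternatives, 6 called MCL1 in Huh7-IR cells and 8 did not. Among the 6 were TMM factors (-0.82), edgeR (-0.77) and DESeq2 (-0.79) on the recovered reads, and a correction for GC content (-0.69). Against the DMSO libraries, in which MCL1 was already lower than in parental cells, the change in Huh7-CR cells was -0.52 and no longer passed. In Hep3B the values were 512 and 489 CPM in parental, 490 and 458 in DMSO, 386 and 408 in IR, and 422 and 338 CPM in CR cells. The changes of -0.33 (adjusted p = 0.0647) and -0.41 (adjusted p = 0.0251) missed the adjusted threshold or the minimum change.

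The ratio of the 2 guardians was computed in each library, with no test. In Hep3B the ratio of BCL2L1 to MCL1, per kb of exon, was 0.734 and 0.702 in the parental and 0.710 and 0.737 in the DMSO libraries. It was 1.82 and 1.48 in IR and 1.19 and 1.39 in CR cells, so that BCL2L1 became the more abundant guardian in all 4 resistant libraries. In Huh7 BCL2L1 was the more abundant one throughout, with ratios of 1.87 and 1.73 in parental, 2.01 and 2.35 in DMSO, 1.38 and 1.70 in IR, and 1.86 and 1.74 in CR cells. With the length of the longest transcript in place of all exons, these ratios kept the same side of 1 in every library.

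BCL2 (gene ID 596, GRCh37 chr18:60790579-60987361, minus strand), the founding guardian of the family, was expressed near the detection limit. The Huh7 parental libraries held 3 and 5 reads, the DMSO libraries 2 and 4, the IR libraries 137 and 21, and the CR libraries 59 and 28. Every resistant library had more reads than any control, but the 2 IR libraries differed from each other by more than the 2 CR libraries. On the CPM scale, the IR group was 26.5-fold above the parental group (95% counting interval 13.1 to 62.4) and the CR group 11.1-fold (5.37 to 26.4). These intervals cover counting error only. On the log2(CPM + 1) scale the change was 1.05 in Huh7-IR cells (SE 0.29), where BCL2 counted as called, and 0.62 in Huh7-CR cells (SE 0.29). Since BCL2 was kept for testing through resistant libraries alone, no p is given for it. Its calls are not taken as support for a rise. Without the first Huh7-IR library the change in Huh7-IR cells was 0.46, below the minimum. In the Hep3B libraries 43 and 22 reads in parental and 33 and 39 in DMSO cells compared with 98 and 84 in IR and 129 and 95 in CR cells. The change was 0.65 in Hep3B-IR cells, where BCL2 was not called, and 0.94 in Hep3B-CR cells, where it counted as called. The latter call was lost without either CR library and without the second parental library (0.80 to 0.97).

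The pore formers changed less. BAX (GRCh37 chr19:49458072-49465055, plus strand) lay between 33.9 and 51.0 CPM in all 16 libraries, and its 4 changes were between -0.09 and 0.18 with adjusted p of 0.38 or more. Its 95% intervals spanned -0.45 to 0.55 over the 4 comparisons. BAK1 (GRCh37 chr6:33540324-33548070, minus strand) had 15.2 and 12.8 CPM in Huh7 parental, 12.6 and 15.99 in DMSO, 31.9 and 19.9 in IR, and 17.2 and 17.9 CPM in CR cells. The 4 resistant values exceeded the 4 control values. BAK1 rose by 0.81 (SE 0.20, adjusted p = 0.00465) in Huh7-IR cells. This call was lost without the first Huh7-IR library (0.48), with a correction for GC content (0.35) and with TMM factors (0.57). It was also lost with the compared groups alone (adjusted p = 0.0927). In Hep3B, BAK1 had 20.9 to 24.0 CPM in the 4 control libraries, 25.4 and 27.1 in IR, and 35.4 and 31.2 CPM in CR cells, with changes of 0.13 and 0.46 (adjusted p = 0.0935 for the latter).

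**Figure D3:**
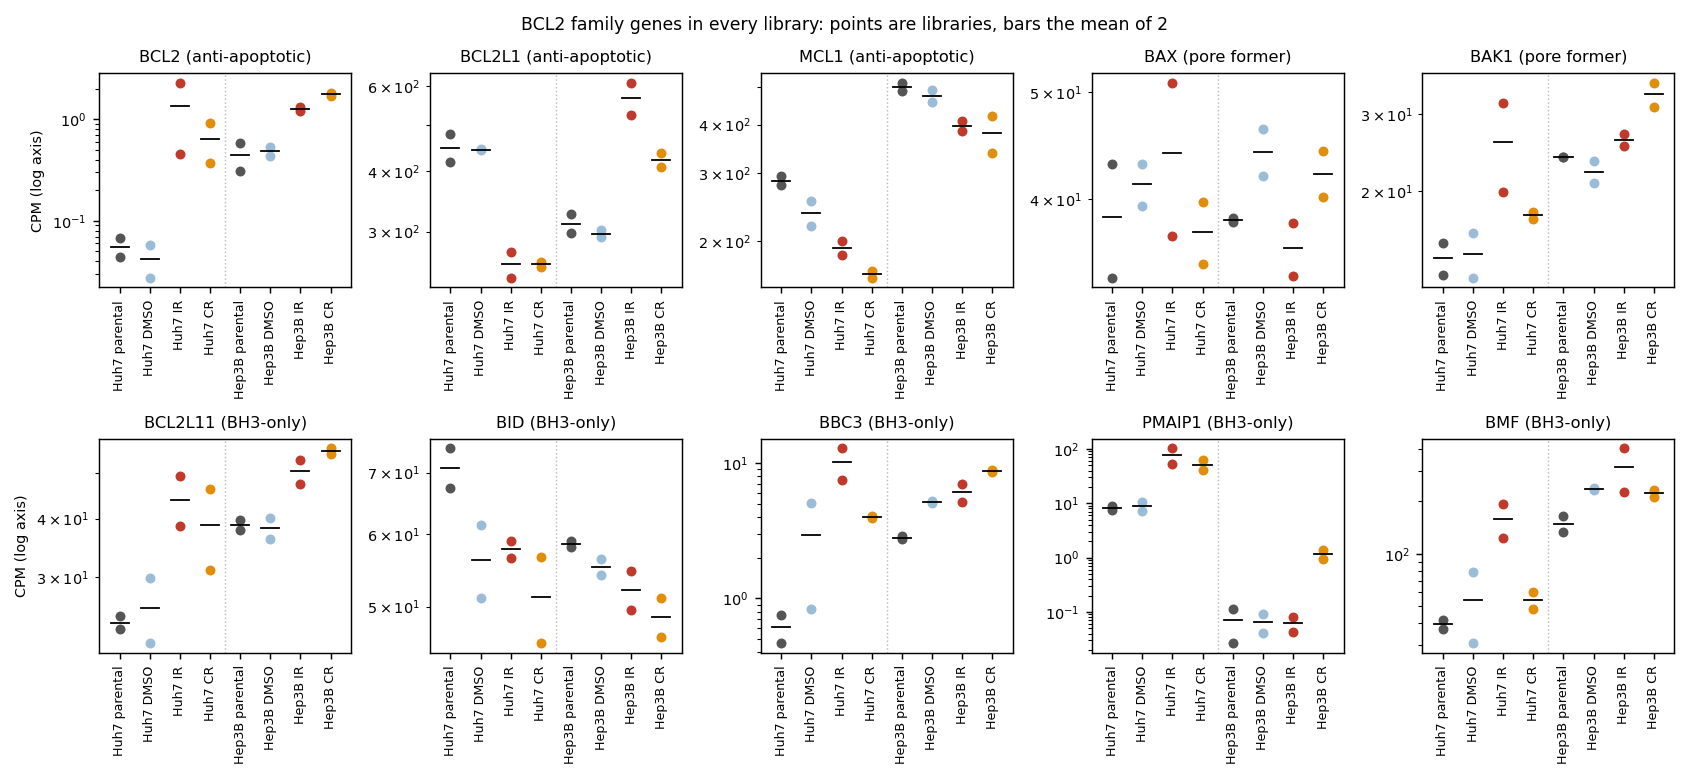
CPM of the 10 members in each of the 16 libraries (y axes logarithmic, each with its own range), with a bar at the mean of each group. PMAIP1 spans the widest range, from 0.03 CPM in a Hep3B parental library to 103 CPM in a Huh7-IR library, and BAX the narrowest.

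Among the BH3-only genes, 3 rose in both resistant Huh7 lines: PMAIP1, BBC3 and BCL2L11. The 250 bases before their transcription starts are shown, as these 3 were called higher in both resistant Huh7 lines and the study is concerned with HIF1α. The sequences are from RefSeq (GRCh38.p14), on the strand of the gene, and capitals mark the core letters of a HIF site, ACGTG or GCGTG, on either strand:
PMAIP1, chr18:59899746-59899995, plus strand: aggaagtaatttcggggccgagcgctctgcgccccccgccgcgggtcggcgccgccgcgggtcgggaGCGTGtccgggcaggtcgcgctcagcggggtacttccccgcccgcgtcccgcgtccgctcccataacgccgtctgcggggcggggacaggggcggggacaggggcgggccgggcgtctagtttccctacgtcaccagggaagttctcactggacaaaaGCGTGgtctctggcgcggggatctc
BBC3, chr19:47232668-47232917, minus strand: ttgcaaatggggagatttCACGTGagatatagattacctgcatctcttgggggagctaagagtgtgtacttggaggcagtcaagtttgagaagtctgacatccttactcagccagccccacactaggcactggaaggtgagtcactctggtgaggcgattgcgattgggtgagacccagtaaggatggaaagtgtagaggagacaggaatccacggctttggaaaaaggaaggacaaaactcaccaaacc
BCL2L11, chr2:111120664-111120913, plus strand: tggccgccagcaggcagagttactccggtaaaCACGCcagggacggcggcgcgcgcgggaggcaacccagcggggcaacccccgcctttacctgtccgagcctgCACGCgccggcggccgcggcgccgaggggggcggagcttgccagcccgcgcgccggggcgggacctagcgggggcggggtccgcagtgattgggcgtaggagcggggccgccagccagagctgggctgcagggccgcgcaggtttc
The windows of PMAIP1 and BCL2L11 hold 2 separate matches each, and the 2 matches of BBC3 are both strands of a single E box (CACGTG), which contains the HIF letters. The window of BCL2L11 also holds 1 match to the FOXO letters TGTTTAC, on the reverse strand and overlapping its first HIF match. Such matches are common: of all 35116 promoter windows of this length, 43.2% hold the HIF letters, 6.34% the E box and 2.98% the FOXO letters. Among the 15 windows of 9 members (several of them alternative starts of 1 gene, and none given for MCL1), 10 windows of 7 members hold the HIF letters. The 7 members are PMAIP1, BBC3, BCL2L11, BCL2L1, BAX, BID and BMF, while the windows of BCL2 and BAK1 hold none. BAX, which was called in no resistant line, has the most matches (9, both strands counted). The 43.2% is a share of windows and not of genes. These matches are a description of the sequence and not of binding.

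PMAIP1 (NOXA; gene ID 5366, GRCh37 chr18:57567228-57571537, plus strand) had the widest range of all members. In Huh7 it had 8.82 and 7.63 CPM in parental, 7.31 and 10.5 in DMSO, 103 and 51.9 in IR, and 62.1 and 40.9 CPM in CR cells. The lowest resistant library was thus well above the highest control library. PMAIP1 rose by 3.01 (SE 0.30, adjusted p = 5.8e-06) in Huh7-IR and by 2.48 (SE 0.30, adjusted p = 4.44e-05) in Huh7-CR cells, and both calls held under all 14 alternatives. It became a main BH3-only transcript of Huh7, from 9.65% of their summed CPM per kb in parental to 37.4% in IR and 40.3% in CR cells.

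In Hep3B PMAIP1 was barely transcribed. There were 2 and 8 reads in the parental, 7 and 3 in the DMSO, 6 and 3 in the IR, and 103 and 50 in the CR libraries. Only the CR libraries stood apart. Their group CPM was 17.4-fold above that of the parental libraries (95% counting interval 9.19 to 36.9), but still at 1.36 and 0.95 CPM. The change on the log2(CPM + 1) scale was 1.01 (SE 0.30, adjusted p = 0.0179) in Hep3B-CR and -0.01 (adjusted p = 0.993) in Hep3B-IR cells. Leaving out the first CR library (0.87) or either parental library (0.95 and 1.06) ended the call. The difference between the lines depended on the scale: it was 2.25 on the log2(CPM + 1) scale (95% interval 1.46 to 3.03, adjusted p = 0.000669), but 0.93 with edgeR (adjusted p = 0.411) and 0.94 with DESeq2 (adjusted p = 0.306), which compare ratios of reads.

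BBC3 (PUMA; gene ID 27113, GRCh37 chr19:47724079-47736023, minus strand) rose in 3 of the 4 resistant lines. Its CPM in Huh7 were 0.76 and 0.47 in parental, 0.84 and 5.04 in DMSO, 7.46 and 12.9 in IR, and 4.07 and 3.91 in CR cells. The second DMSO library overlapped the CR libraries. The change was 2.76 (SE 0.41, adjusted p = 0.000138) in Huh7-IR and 1.63 (SE 0.41, adjusted p = 0.00746) in Huh7-CR cells. With the DMSO libraries as reference it was 0.58 in Huh7-CR cells and did not pass (adjusted p = 0.285), and without the second parental library it missed the threshold (adjusted p = 0.0545). In Hep3B BBC3 had 2.73 and 2.91 CPM in parental, 5.09 and 5.29 in DMSO, 7.04 and 5.20 in IR, and 8.59 and 8.91 CPM in CR cells. The DMSO libraries again had more than the parental ones. The change was 0.89 (adjusted p = 0.125) in Hep3B-IR and 1.35 (SE 0.41, adjusted p = 0.0217) in Hep3B-CR cells. The latter call was lost without any 1 of the 4 libraries (1.32 to 1.39) and against the DMSO libraries (0.66, adjusted p = 0.232). It was also lost with edgeR on the recovered reads (1.51, adjusted p = 0.0556) and with limma and no filter (adjusted p = 0.0541).

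BCL2L11 (BIM; gene ID 10018, GRCh37 chr2:111876955-111926021, plus strand) rose in both resistant Huh7 lines. It had 24.7 and 23.2 CPM in parental, 21.7 and 29.8 in DMSO, 49.3 and 38.5 in IR, and 31.1 and 46.4 CPM in CR cells. All resistant values exceeded the controls. BCL2L11 rose by 0.84 (SE 0.20, adjusted p = 0.00340) in Huh7-IR cells under every alternative run, and by 0.64 (SE 0.20, adjusted p = 0.0217) in Huh7-CR cells, where 7 of the 14 alternatives ended the call and leaving out the second CR library gave 0.36. The change of 0.37 in Hep3B-IR cells (adjusted p = 0.184) and that of 0.51 in Hep3B-CR cells (adjusted p = 0.0600) missed the threshold. MIR4435-2HG, a long noncoding RNA on the other strand, shares 727 of the 6297 exon bases of BCL2L11. It was lower in the resistant Huh7 libraries (27.4 to 41.4 CPM) than in the parental ones (47.4 and 52.5).

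BMF (gene ID 90427, GRCh37 chr15:40380091-40401093, minus strand), which is held at the cytoskeleton in resting cells, had its highest group mean in IR cells of both lines. In Huh7 it had 37.1 and 41.6 CPM in parental, 30.8 and 78.3 in DMSO, 123 and 192 in IR, and 48.3 and 60.0 CPM in CR cells. Only the IR libraries lay above all controls. BMF rose by 1.94 (SE 0.37, adjusted p = 0.000717) in Huh7-IR cells and had a change of 0.45 (adjusted p = 0.363) in Huh7-CR cells. In Hep3B the values were 164 and 134 CPM in parental, 231 and 238 in DMSO, 404 and 228 in IR, and 211 and 234 CPM in CR cells. The DMSO libraries overlapped both resistant groups. The call in Hep3B-IR cells (1.03, SE 0.37, adjusted p = 0.0494) was the weakest of all, and 9 of 14 alternatives ended it. Leaving out the first Hep3B-IR library gave 0.62 (adjusted p = 0.359), leaving out either parental library gave 1.17 and 0.88 (adjusted p = 0.0952 and 0.231), and the DMSO libraries as reference gave 0.37 (adjusted p = 0.465). Of its 5231 exon bases, 461 are shared with the antisense transcript BMF-AS1.

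BID (gene ID 637, GRCh37 chr22:18216904-18257536, minus strand), which carries the signal of death receptors to mitochondria, had negative changes in all 4 resistant lines. Its CPM ranged from 45.6 to 74.4 over all libraries, with the maximum in a Huh7 parental library. The changes were -0.29 in IR and -0.47 in CR cells of Huh7, and -0.17 in IR and -0.26 in CR cells of Hep3B, and that in Huh7-CR cells had an adjusted p of 0.0169 but was below the minimum change. BID was also lower in the DMSO libraries of Huh7 (61.4 and 51.0 CPM) than in the parental ones (74.4 and 67.3), and against DMSO the change in Huh7-IR cells was 0.04.

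DMSO cells provided the background. In DMSO against parental cells 0 of the 10 members passed in Huh7, where 4.83% of all genes did, and 0 passed in Hep3B, where 1.58% did (limma). At an unadjusted p below 0.05 with the same minimum change, 1 member passed in Huh7 (BBC3, 1.05, adjusted p = 0.143) and 0 in Hep3B. DESeq2 on the recovered reads also called BBC3 in Huh7 (2.19, adjusted p = 0.00361), and edgeR called 0 members in either line. The 2 Huh7 DMSO libraries differed from each other in BBC3 (0.84 and 5.04 CPM) and BMF (30.8 and 78.3 CPM). Without the first of them the change of BBC3 was 1.91. MCL1 (-0.28, adjusted p = 0.197) and BID (-0.33, adjusted p = 0.163) were below the minimum change.

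Next, the 2 routes to resistance were compared. In Huh7, BMF was higher in IR than in CR cells by 1.50 (SE 0.37, adjusted p = 0.0194), and it was the only one of the 10 members called, against 13.7% of all genes. This call was lost without either CR library and without the second IR library (1.18 to 1.65). The difference of BBC3 (95% interval 0.22 to 2.02, adjusted p = 0.0817) and that of BAK1 (95% interval 0.05 to 0.94, adjusted p = 0.111) missed the threshold. In Hep3B, PMAIP1 was lower in IR than in CR cells by 1.02 on the log2 scale (change -1.02, adjusted p = 0.0406), the only member called against 11.7% of all genes, and leaving out any of the 4 libraries ended the call (-1.16 to -0.88). BCL2L1 was higher in Hep3B-IR than in Hep3B-CR cells by 0.42 (adjusted p = 0.0400), below the minimum change.

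The parental lines themselves differed in 6 of the 10 members, against 42.6% of all genes. PMAIP1 was higher in Huh7 than in Hep3B by 3.11 (SE 0.30, adjusted p = 3.42e-06). BMF (-1.89, adjusted p = 0.000993), BBC3 (-1.25, adjusted p = 0.0238), MCL1 (-0.80, adjusted p = 0.000237), BAK1 (-0.74, adjusted p = 0.00933) and BCL2L11 (-0.67, adjusted p = 0.0139) were lower in Huh7. Those of BBC3, BAK1 and BCL2L11 were lost when 1 library was left out: BBC3 without any 1 of the 4 libraries (-1.38 to -1.12), BAK1 without the second Huh7 library (-0.62), and BCL2L11 without the second library of either line (-0.64 and -0.63). BCL2L1 was higher in Huh7 by 0.52 (adjusted p = 0.00357), below the minimum change.

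The remaining genes of the pathway were counted in the same way. Of the 13 other BCL2 family genes 10 were tested (BCL2A1, BCL2L10 and BCL2L15 were not), and 5, 1, 2 and 4 of them rose and 1, 1, 1 and 0 fell (the order here and in the next lists is IR and CR cells of Huh7, then IR and CR cells of Hep3B). BOK, a relative of BAX and BAK1, rose by 2.53 (SE 0.31, adjusted p = 3.18e-05) in Huh7-IR and by 2.18 (SE 0.31, adjusted p = 0.000172) in Huh7-CR cells. BIK, a BH3-only gene, rose by 1.52 in Hep3B-IR (adjusted p = 0.000383) and BNIP3L, a mitophagy receptor, by 1.70 in Hep3B-CR cells (adjusted p = 0.00277). Median changes of this list were 0.59, 0.14, 0.43 and 0.60. In the same order, 31.1%, 20.9%, 15.7% and 20.0% of all tested genes rose and 17.8%, 13.6%, 11.4% and 12.3% fell, so that genes at large also rose more often than they fell, and these shares apply to the lists that follow. For the other BCL2 family genes, 1 of 10 in Huh7-CR cells was below that share, and 2 of 10 in Hep3B-IR cells was near it. HRK, 1 of the 10, passed the filter only through resistant libraries, and it is included in the counts of genes that rose in Huh7-IR and Hep3B-CR cells.

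Downstream of mitochondria, 15 genes of the caspase machinery were divided. In Huh7, 3 rose and 6 fell in IR cells, and 4 rose and 4 fell in CR cells. In Hep3B, 3 rose and 4 fell in IR cells, and 2 rose and 4 fell in CR cells. XIAP, which inhibits caspases, was among those that rose, and AIFM1, which encodes a mitochondrial flavoprotein, among those that fell in each of the 4 comparisons. BIRC3, another inhibitor of apoptosis, rose by 2.46 (SE 0.44, adjusted p = 0.000830) in Huh7-CR and by 1.55 (SE 0.44, adjusted p = 0.00921) in Huh7-IR cells, the latter being lost without the second IR (1.38) or the second parental library (1.05). BIRC5 (survivin), which is expressed in dividing cells, fell by 1.91 (SE 0.28, adjusted p = 0.000269) in Hep3B-CR and by 1.09 (SE 0.28, adjusted p = 0.0102) in Hep3B-IR cells, the latter being lost without the second IR (-0.72) or the second parental library (-1.06).

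Death receptor genes, the extrinsic arm that meets the BCL2 family at BID, were counted next: 6, 6, 6 and 5 of 11 tested genes rose and 2, 0, 1 and 0 fell (FASLG was not tested), with medians of 0.67, 0.82, 0.64 and 0.66. FAS, 1 of the 11, passed the filter only through resistant Huh7 libraries, and it is included in the counts of genes that rose in Huh7-IR and Huh7-CR cells. CASP8, the caspase that cleaves BID, rose in all 4. CFLAR rose in Huh7-IR, Huh7-CR and Hep3B-IR cells. The genes that fell were CASP10 and FADD in Huh7-IR and FADD in Hep3B-IR cells. The largest changes of the list were those of the adaptor TRADD in Huh7-IR (1.64, adjusted p = 0.000257), of the ligand TNFSF10 (TRAIL) in Hep3B-IR (2.78, adjusted p = 0.000354) and of its receptor TNFRSF10B in Hep3B-CR cells (2.15, adjusted p = 6.92e-06). In Huh7-CR cells it was that of the receptor FAS, which had 2.40 and 2.71 CPM there and 2.04 and 0.708 in Huh7-IR cells, but at most 0.013 CPM in the 4 control libraries of Huh7 and at most 0.028 in any of Hep3B. A gene kept through these libraries alone had to differ, so no fold change or p is given for it.

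Of 8 partners of the members and factors of their turnover, 2, 2, 0 and 0 rose and 3, 0, 1 and 0 fell. BTRC, a subunit of a ubiquitin ligase, rose by 1.09 both in Huh7-IR cells (adjusted p = 0.00131) and in Huh7-CR cells (adjusted p = 0.00220). DYNLL1, the dynein light chain that binds BIM and BMF, fell by 0.63 in Hep3B-IR cells (adjusted p = 0.0285), a call lost without the first IR (-0.45) or the first parental library (-0.49), against the DMSO libraries (-0.42, adjusted p = 0.119), with these groups alone (adjusted p = 0.0522) and with no filter (adjusted p = 0.0540).

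Of 7 transcription factors known to act on members, DDIT3 (CHOP), ATF4 and FOXO3 rose in all 4 resistant lines. Counts of genes that rose were 3, 3, 4 and 4, and 1, 0, 1 and 1 fell, namely E2F1 in Huh7-IR and FOXO1 in Hep3B-IR and Hep3B-CR cells. DDIT3 is a factor of the unfolded protein response that is known to induce BIM, and it rose by 2.59 in Huh7-IR (adjusted p = 0.000179), 1.62 in Huh7-CR (adjusted p = 0.00662), 1.88 in Hep3B-IR (adjusted p = 0.00370) and, most of all, 2.81 in Hep3B-CR cells (adjusted p = 0.000227). Against the DMSO libraries the changes in Huh7-CR (0.83, adjusted p = 0.118) and Hep3B-IR cells (0.81, adjusted p = 0.135) did not pass, and that in Huh7-CR cells was also lost without the first CR (1.25) or the first parental library (1.39).

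CDKN1A (p21), an inhibitor of the cell cycle, rose by 4.11 (adjusted p = 0.000284) in Huh7-IR, 4.18 (adjusted p = 0.000438) in Huh7-CR, 6.87 (adjusted p = 1.78e-05) in Hep3B-IR and 6.41 (adjusted p = 2.80e-05) in Hep3B-CR cells. The second DMSO library of Huh7 had 27.1 CPM of it, against 1.03 to 2.63 in the other control libraries and 40.4 to 54.9 in the resistant libraries of this line. Against the DMSO libraries the changes of CDKN1A in Huh7 were 2.17 in IR and 2.25 in CR cells, which passed (adjusted p = 0.0167 and 0.0188).

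**Figure D4:**
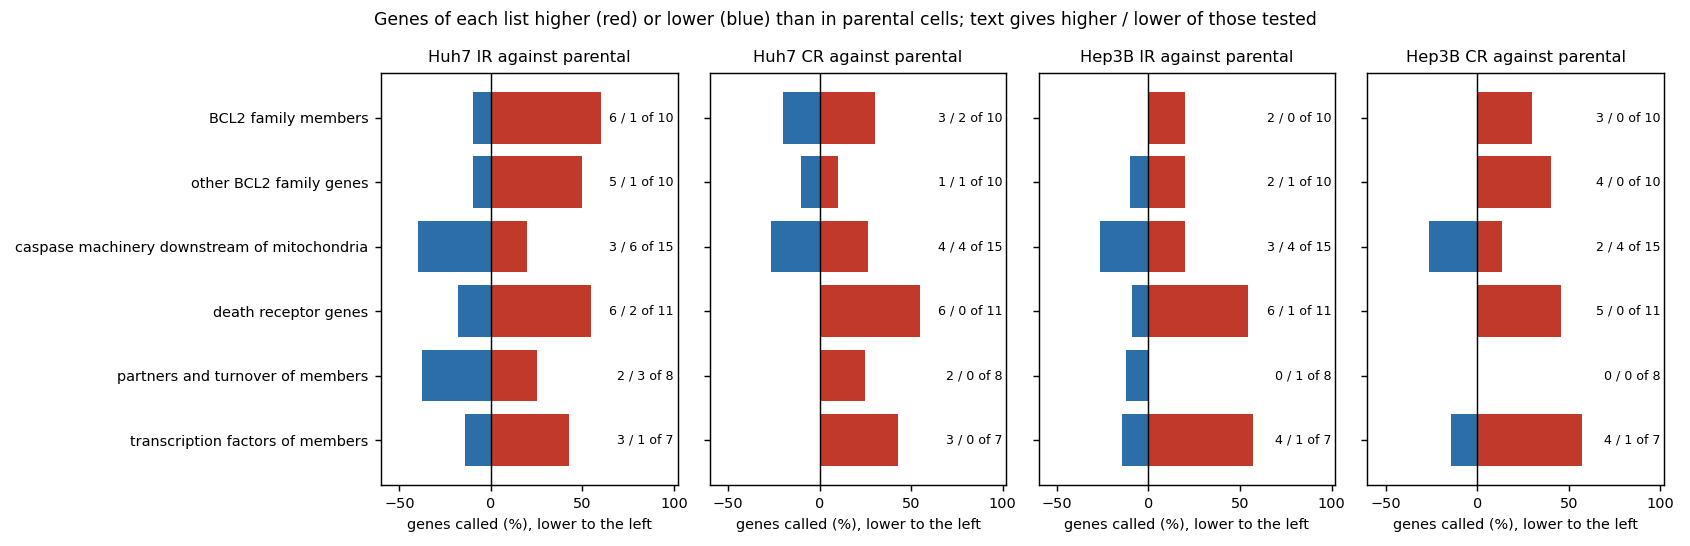
Share of tested genes called higher (red, right) or lower (blue, left) than in parental cells, in percent, for the BCL2 family members and 5 other lists in the 4 resistant lines. Death receptor genes were called higher in 5 or 6 of 11 cases in each, while caspase genes were divided between both directions. The death receptor counts in Huh7 include FAS, which passed the filter only through resistant Huh7 libraries. BCL2 among the members and HRK among the other BCL2 family genes also passed it only through resistant libraries. Both are counted as higher in Huh7-IR and Hep3B-CR cells. For comparison, the shares of all tested genes called higher in Huh7 were 31.1% (IR) and 20.9% (CR). In Hep3B they were 15.7% (IR) and 20.0% (CR). The shares called lower were 17.8% (IR) and 13.6% (CR) in Huh7, and 11.4% (IR) and 12.3% (CR) in Hep3B.

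Finally, the genes whose group means resembled those of the most variable members were listed as a description, over 8 group means that share their lines and libraries. ITGB8 (Pearson's r = 0.995) and SLC35A2 (0.994) were most like PMAIP1, SKIC2 (0.987) and SLC35E2B (0.986) were most like BMF, and SYMPK (0.983) and ZSWIM4 (0.982) were most like BBC3.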

How the data were processed

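Poly(A) RNA was sequenced in 16 libraries, which form 8 groups of 2 by their titles. The authors mapped reads to hg19 with STAR, counted uniquely mapped reads over RefSeq exons with QuasR and deposited CPM. The deposited CPM values were whole multiples of 1 read in 100% of cases (tolerance 0.05 reads), which gave back reads and library totals of 46613302 to 76860251. Of 26258 gene IDs, 26111 were matched to symbols.

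On log2(CPM + 1), limma 3.58.1 (R 4.3.3) with a mean-variance trend was run in 1 fit of all 8 groups, over the 15019 genes that reached 1 CPM in 2 or more libraries. This follows the grouping and the minimum change (0.58) of the study, whose own test was edgeR. P-values were adjusted by Benjamini-Hochberg over all genes tested. The fit was tested on simulated data. Gene positions and exon lengths were from GENCODE on GRCh37, and promoter windows from RefSeq on GRCh38.p14, and coordinates of the builds were not combined.

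The alternatives were edgeR 4.0.16 and DESeq2 1.42.0 on the recovered reads, TMM factors, pseudocounts of 0.25 and 4 CPM, no filter, the compared groups alone, the replicate number as a block, a correction for GC content (known for 98.1% of the genes), DMSO libraries as reference, other thresholds, transcript length, and each library left out. Where that left 1 library in a group, it was assumed to vary like the other groups.

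Named genes were all 10 members, the gene with the largest called change of each list in each resistant line, CDKN1A, and the 2 genes most like each of the 3 most variable members. ATF4, FOXO3, FOXO1, E2F1, XIAP, AIFM1, CASP8, CASP10, CFLAR and FADD were named after their values were seen. Of the genes the naming rule gives, 1 is not reported here, nor is 1 list. The members and lists were chosen with earlier results of these data known. The labels and the methods of the paper name different sequencers.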

Additional observations from a re-analysis of the deposited data

Results flagged for a closer look

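The change of resistant from parental cells differed between Huh7 and Hep3B for 2 members by the interaction test. For BCL2L1 the difference was -1.44 on the log2 scale (adjusted p = 2.92e-05 by limma), with all 4 resistant libraries below the parental ones in Huh7 and all 4 above them in Hep3B. For PMAIP1 the difference was 2.25 (adjusted p = 0.000669 by limma), but 0.93 with edgeR and 0.94 with DESeq2, where it did not pass (adjusted p = 0.411 and 0.306). The Hep3B parental libraries held 2 and 8 reads of PMAIP1.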

How the results depend on the processing

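Of the 27 calls of members over all comparisons, 12 held under every alternative run for them and 0 changed direction. The calls of BCL2 among the 27 are not independent of the filter. Counts of members called moved by more than 1.5 times as follows. In Huh7-CR cells 2 of the 5 calls were left against the DMSO libraries. In Hep3B-IR cells 1 call (BCL2L1) was left against DMSO, with TMM factors, with edgeR, without a filter and with the replicate number as a block (1). In Hep3B-CR cells the count was 1 with a pseudocount of 4 CPM and 5 with no minimum change, which added BCL2L1 and MCL1. In Huh7 DMSO cells it was 1 with DESeq2 and 1 at an unadjusted p. Between Huh7-IR and Huh7-CR cells it was 0 with these groups alone, 2 with a pseudocount of 4 CPM and 2 at an unadjusted p. Between Hep3B-IR and Hep3B-CR cells it was 2 with the GC correction, 0 without a filter, 0 with a pseudocount of 4 CPM and 2 with no minimum change. The interaction gave 1 with edgeR. The cause was not tested.

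With 1 library left out, counts were 6 to 8 in Huh7-IR, 3 to 5 in Huh7-CR, 1 to 2 in Hep3B-IR, 0 to 1 in Hep3B-CR, 0 to 2 in DMSO cells of Huh7 and 0 in those of Hep3B. They were 0 to 3 between Huh7-IR and Huh7-CR, 0 between Hep3B-IR and Hep3B-CR, 4 to 6 between the parental lines and 2 for the interaction.

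The values that changed sign were all uncalled. BAX in Huh7-IR cells was -0.014 with DESeq2, -0.28 with the GC correction, -0.066 with TMM factors and -0.046 to 0.41 with 1 library left out. BAX in Hep3B-CR cells was -0.064 against DMSO and -0.15 with the GC correction, and in Huh7-CR cells -0.20 to 0.13 with 1 library left out. Against DMSO, BID in Huh7-IR cells was 0.043 and BMF in Hep3B-CR cells -0.080. PMAIP1 in Hep3B-IR cells was -0.068 to 0.048 with 1 library left out.

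Whether the replicate numbers pair the samples is not known. Over 28 pairs of groups, deviations of equal numbers correlated between -0.22 and 0.44, with 13 over 0.1 and 10 negative. These values do not settle it. The block ended 1 call of a member, BMF in Hep3B-IR cells (adjusted p = 0.0525). Groups held 2 libraries each, and a GC drift stood between replicates (Spearman's rho across genes of 0.52 in Huh7 parental and -0.51 in Huh7 DMSO cells). BCL2 was counted in 137 reads or fewer in each library, and PMAIP1 in 103 or fewer in those of Hep3B.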
